A study of Mus musculus with 2 samples.

Results

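MicroRNA genes on chromosomes 1 to 19 were examined for open chromatin in the midbrain of mouse embryos. The genes were those that GENCODE vM21 types as miRNA, which gave 2054 of the 51229 annotated genes of these chromosomes. DNase-seq, in which DNase I cuts accessible DNA and the cut ends are sequenced, had been run on midbrain tissue of strain B6NCrl at embryonic day 11.5, with male and female embryos pooled. The series held 1 group of 2 biological replicates and no control tissue, so members were set against the rest of the genome. Both replicates carry the same donor identifier in the labels, so the spread between them may be partly technical. A peak counted for a gene when it lay within 5 kb of the annotated hairpin. Peaks of both replicates that overlapped by at least 1 bp were merged into a consensus site. Of 87757 consensus sites on these chromosomes, 1690 lay within 5 kb of a microRNA gene. A hairpin wholly within a protein-coding gene, on either strand, was classed as inside (1215 genes), and one that touched none was classed as between (829 genes). The remaining 10 genes crossed the end of a protein-coding gene.

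MicroRNAs are short RNAs cut from hairpins in longer primary transcripts, and they lower the output of messenger RNAs that pair with their seed, the bases near the 5′ end. Those inside protein-coding genes can be cut from the host transcript or from a transcript of their own, while those between genes often come from long noncoding RNAs (lncRNAs). Sites open to DNase I mark promoters and enhancers, so a site near a hairpin may belong to the microRNA, to its host or to a neighbouring gene. In the developing brain, miR-9 is known for timing the division of neural progenitors and miR-124 for the switch to a neuronal programme.

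The mature RNAs below belong to the neural families on which the results turn, from 41 of 44 neural-list genes matched by symbol to the RefSeq microRNA table of GRCm38.p6. Capitals mark the seed, bases 2 to 8. The first pair comes from the 3 miR-9 loci. The next sequences come from families with a site on a hairpin or at every gene. The last, miR-181a-5p and miR-218-5p, come from loci without a consensus site. miR-132 and miR-212 share a seed, as do miR-7a and miR-7b, and miR-125a and miR-125b.
miR-9-5p: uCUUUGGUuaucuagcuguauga
miR-9-3p: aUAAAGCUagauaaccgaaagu
miR-137-3p: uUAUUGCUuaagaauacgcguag
miR-128-3p: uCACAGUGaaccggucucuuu
miR-132-3p: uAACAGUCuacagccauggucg
miR-212-3p: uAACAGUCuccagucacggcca
miR-219a-5p: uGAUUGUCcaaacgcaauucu
miR-125a-5p: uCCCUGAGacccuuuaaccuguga
miR-125b-5p: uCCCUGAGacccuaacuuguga
miR-7a-5p: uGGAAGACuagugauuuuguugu
miR-7b-5p: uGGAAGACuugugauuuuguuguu
miR-181a-5p: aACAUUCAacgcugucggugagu
miR-218-5p: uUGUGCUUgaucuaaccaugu
The 6 consensus sites below lay at neural microRNA genes and are printed along the strand of the microRNA, from GRCm38.p6, whose chromosomes 1 to 19 hold every peak used. In the first 4, which overlapped the hairpin, capitals mark the bases of the mature RNAs. The site at Mir9-2 is chr13:83738676-83738865 on the plus strand, and that at Mir137 is chr3:118433776-118433945 on the plus strand. The site at Mir128-2 is chr9:112118476-112118705 on the minus strand, and that at Mir132 is chr11:75173536-75173705 on the plus strand. The other 2 were the strongest sites of their loci, and capitals mark ACAATG, a SOX-type sequence, on either strand. They lay upstream of Mir9-3 at chr7:79504796-79505025 on the plus strand and upstream of Mir219a-2 at chr2:29846296-29846465 on the minus strand. These 2 matches are not typical. In the 150 bp around the midpoint, ACAATG was in 3.05% of sites near neural microRNA genes and 8.1% of all consensus sites. The match at Mir9-3 lies near the end of its site, outside those 150 bp.
Mir9-2 hairpin site: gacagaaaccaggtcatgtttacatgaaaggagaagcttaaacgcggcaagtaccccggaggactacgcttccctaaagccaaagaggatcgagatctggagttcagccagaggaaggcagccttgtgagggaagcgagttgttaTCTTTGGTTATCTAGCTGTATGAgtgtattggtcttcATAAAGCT
Mir137 hairpin site: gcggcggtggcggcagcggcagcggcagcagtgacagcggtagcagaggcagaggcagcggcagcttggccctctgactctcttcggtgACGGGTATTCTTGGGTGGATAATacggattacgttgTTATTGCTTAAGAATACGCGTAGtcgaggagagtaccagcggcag
Mir128-2 hairpin site: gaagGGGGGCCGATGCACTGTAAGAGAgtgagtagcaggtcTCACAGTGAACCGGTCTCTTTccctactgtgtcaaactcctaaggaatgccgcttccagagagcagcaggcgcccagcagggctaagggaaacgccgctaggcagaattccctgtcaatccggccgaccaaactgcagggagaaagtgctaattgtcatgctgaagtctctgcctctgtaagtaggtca
Mir132 hairpin site: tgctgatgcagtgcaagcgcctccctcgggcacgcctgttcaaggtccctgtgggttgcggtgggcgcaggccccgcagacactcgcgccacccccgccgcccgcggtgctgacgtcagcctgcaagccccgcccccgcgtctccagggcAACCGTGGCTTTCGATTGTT
Mir9-3 upstream site: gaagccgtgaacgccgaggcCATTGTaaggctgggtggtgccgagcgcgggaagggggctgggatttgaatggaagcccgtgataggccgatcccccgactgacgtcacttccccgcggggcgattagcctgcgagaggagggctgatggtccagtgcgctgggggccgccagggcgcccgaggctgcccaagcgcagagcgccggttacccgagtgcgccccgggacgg
Mir219a-2 upstream site: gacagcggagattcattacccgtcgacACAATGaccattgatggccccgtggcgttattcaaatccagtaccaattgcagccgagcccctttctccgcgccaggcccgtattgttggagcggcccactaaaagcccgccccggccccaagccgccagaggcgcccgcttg
The Mir137 site held 46 mature bases and the Mir128-2 site 44, all bases of both arms. The Mir9-2 site held 31 and ended within the 3p arm, and the Mir132 site held 20 and ended within the 5p arm. GC content was 47.4% at Mir9-2, 59.4% at Mir137, 54.8% at Mir128-2, 70.6% at Mir132, 70% upstream of Mir9-3 and 61.8% upstream of Mir219a-2.

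Replicate 1 had 300618 peaks on chromosomes 1 to 19 and replicate 2 had 447681. The files give no read totals, so depth is unknown and no counting interval is given. The signal of a peak is the authors' own whole number with no stated normalization, so it is given per replicate and ranked as a percentile among that replicate's peaks. Among 6 genes taken as marks of midbrain or neural tissue, a consensus site lay within 500 bp of a transcription start site (TSS) of Sox2, Otx2, En1 and En2 but of neither Pax7 nor Lmx1b.

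The share of microRNA genes with open chromatin nearby was higher than the share of equal stretches of the genome. A peak lay within 5 kb of 1162 genes (56.6%) in replicate 1 and of 1154 (56.2%) in replicate 2, a mean of 56.4% ± 0.275 (SD, n = 2). Non-overlapping 10 kb tiles of the same chromosomes held a peak in 42.6% of cases in replicate 1 and 42.4% in replicate 2. A consensus site lay within 5 kb of 811 microRNA genes (39.5%), against 21.7% of tiles. Other small RNA genes lay between these values, with 28.1% for snRNA genes and 26.8% for snoRNA genes, while windows on the 5′ ends of protein-coding genes reached 70.9%. Of the remaining microRNA genes, 117 had peaks of both replicates that did not overlap, 234 had peaks of replicate 1 only and 226 of replicate 2 only. No peak of either replicate lay near 666 genes (32.4%), against 42.8% of tiles. Most genes with a site had few. A single site lay near 377 genes, 2 to 4 near 335 and 5 or more near 99 (4.82%), against 0.821% of tiles with 5 or more.

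Peaks near microRNA genes were shared between the replicates in a higher proportion than peaks in general. Of 3522 peaks of replicate 1 near a microRNA gene, 50.6% overlapped a peak of replicate 2, against 30.7% of all its peaks. In replicate 2 the shares were 33.1% of 5542 peaks near microRNA genes and 21.5% of all peaks. The consensus sites near microRNA genes had a median signal of 57.5 in replicate 1 and 36 in replicate 2, and the medians over all consensus sites were 49 and 27. Their signals ranked alike in both libraries, with a Spearman's rho of 0.836 across the 1690 sites and 0.79 across all consensus sites, given as a description because sites share the 2 libraries. In both replicates 1582 of these sites (93.6%) ranked at or above the 50th percentile, against 87.5% of all consensus sites. Sites around neural microRNA genes did so in 122 of 131 cases (93.1%).

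**Figure D1:**
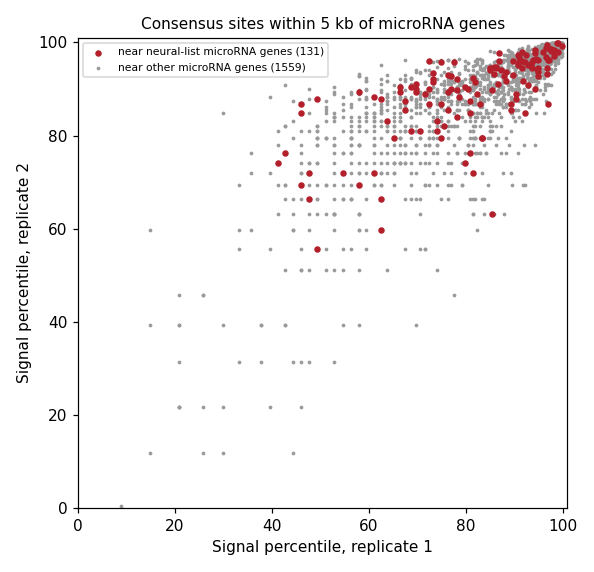
Each point is 1 of the 1690 consensus sites within 5 kb of a microRNA gene, placed by its signal percentile among all peaks of replicate 1 (x axis) and of replicate 2 (y axis). Most points crowd the upper right corner, and red points, the 131 sites near neural-list genes, reach down to percentiles of 41.2 in replicate 1 and 55.7 in replicate 2, while other points reach 8.88 and 0.4.

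The first split asked whether microRNA genes inside protein-coding genes differ from those between them. A consensus site lay near 528 inside genes (43.5%) and near 273 between genes (32.9%), a difference of 10.5 percentage points. In single replicates 59.7% and 60.1% of inside genes had a peak, against 51.5% and 49.9% of between genes. The difference was 8.16 points in replicate 1 and 10.1 in replicate 2, a mean of 9.15 ± 1.40 (SD, n = 2), which is larger than the spread between replicates. That spread describes how well the 2 libraries repeat on the same genes and not the variation among genes. Tiles showed a difference of the same direction, with 26.9% of tiles centred inside protein-coding genes and 18% of those outside. With 1 group of 2 replicates, none of the shares here was tested against another, and all are descriptions of these libraries.

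Distance to protein-coding promoters separated the genes more than the class did. Of 454 microRNA genes with a protein-coding TSS within 5 kb, 83.7% had a consensus site, against 26.9% of the 1600 genes farther away. Near a TSS the shares were 84.1% of 358 inside genes and 80.2% of 86 between genes, and tiles near a TSS reached 65.2%. Away from TSSs, with every gene counted singly, the classes differed little, and the sign depended on the measure. Inside genes then had a consensus site in 26.5% of 857 cases and between genes in 27.5% of 743, a difference of -0.969 points. In single replicates a peak lay near 47.3% and 48.1% of these inside genes, against 47.5% and 45.6% of between genes. The difference was -0.252 points in replicate 1 and 2.45 in replicate 2, a mean of 1.1 ± 1.91 (SD, n = 2), which is within the spread between replicates. These inside genes include 119 that lie together within Sfmbt2, a single locus with no consensus site and no peak of replicate 1. Their windows overlap but were counted singly, which lowers the inside share with a consensus site. The difference without this locus was not computed, so its sign away from TSSs is not settled here. Tiles away from TSSs kept the order of all tiles, with 20.5% centred inside protein-coding genes and 15.3% outside. This split by TSS distance was added after seeing the data. The 10 genes that cross the end of a protein-coding gene all had a site.

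**Figure D2:**
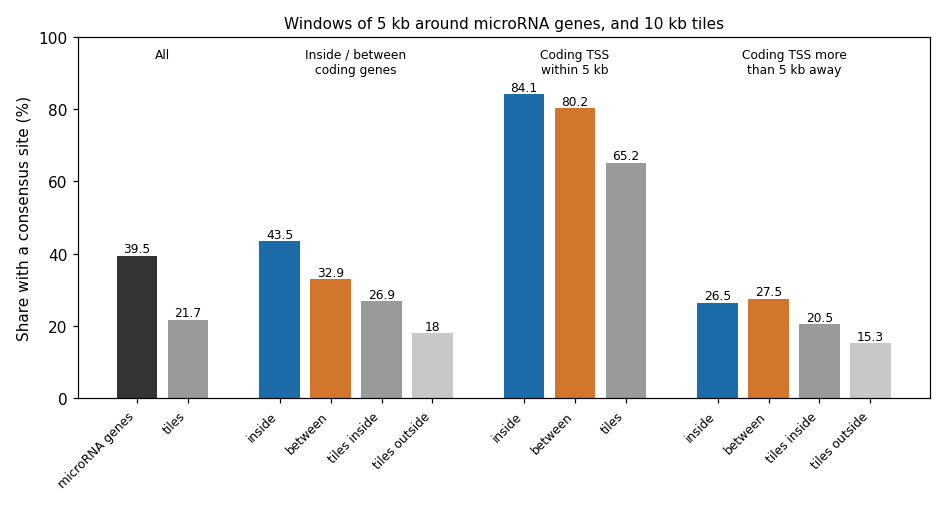
Bars give the share of windows of 5 kb around microRNA genes, or of 10 kb tiles, that held a consensus site. Inside genes stand above between genes overall (43.5% and 32.9%) but not where the nearest coding TSS is more than 5 kb away (26.5% and 27.5%), and microRNA bars stand above the tiles in each block. The 26.5% counts singly the 119 genes of the Sfmbt2 locus, which had no consensus site.

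Other features of the genes went with the share as well. Among inside genes, hairpins that overlapped an exon had a site nearby in 62.3% of 260 cases and intronic ones in 38.3% of 955. The strand of the host made less difference, with 45.6% of 294 genes on the opposite strand and 42.8% of 921 on the same strand. Both splits of inside genes count singly the 119 Sfmbt2 genes, which had no consensus site, and were not computed without them. Among between genes, those within a lncRNA gene of their own strand had a site in 51.4% of 138 cases, and the others in 29.2% of 691. Genes with a symbol that begins with Mir had a site in 47.3% of 1084 cases and genes with other symbols, such as Gm, in 30.7% of 970. Windows of Mir-named genes had a median of 20.2% of bases masked as repeats in the genome file, against 30.8% for the others. Where less than 25% of the window was masked, 51.1% of genes had a site. The share was 30.4% from 25 to 50%, 11.8% from 50 to 75% and 4.55% (1 of 22 genes) above that. The part of repeat content in these differences was not tested.

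More of the sites near microRNA genes were promoters of protein-coding genes than of consensus sites in general. Their midpoint lay within 500 bp of a protein-coding TSS in 27.9% of cases, against 18.8% of all sites. The share was 33.2% for sites near inside genes and 14.3% for sites near between genes only. For lncRNA TSSs it was 5.86% near microRNA genes and 3.48% over all sites. Along the strand of the nearest microRNA, more sites lay upstream of its 5′ end than downstream. Inside genes had 651 sites upstream and 500 downstream (56.6% upstream), and between genes had 307 and 210 (59.4%). Without promoter sites, 51.9% of sites lay upstream of inside genes and 59.4% upstream of between genes. With promoter sites included, the kilobase just upstream held the most sites of any 1 kb bin, 189 for inside genes and 78 for between genes, and the next kilobase upstream held 146 and 77. Without promoter sites, that next kilobase held the most, with 100 sites for inside genes and 68 for between genes, against 96 and 62 in the kilobase just upstream.

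**Figure D3:**
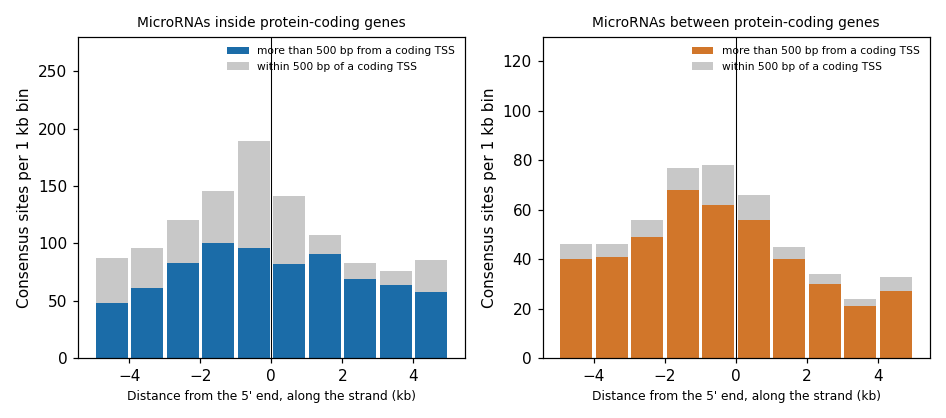
Consensus sites are counted in 1 kb bins by the distance of their midpoint from the 5′ end of the nearest microRNA gene, along its strand, for inside genes (left) and between genes (right). Grey parts are sites within 500 bp of a protein-coding TSS, which fill much of the peak before the 5′ end of inside genes (93 of 189 sites) and less of it for between genes (16 of 78).

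The neural list, 44 genes of families known for roles in neurons or glia, had a consensus site at 32 genes (72.7%) in 27 of its 36 clusters, where a cluster is a chain of genes at most 10 kb apart. The same share was 39.5% over all microRNA genes and 21.7% over tiles. It was 47.3% over genes with a symbol that begins with Mir, as every neural-list symbol does. Shares of the other lists, described below, ran from 14.6% for the imprinted Dlk1-Meg3 list to 100%, on both sides of the neural share. Most of them also lay above 39.5%, so a share above that value is not particular to the neural list. All lists were chosen with earlier results of these data known, and the neural share depends on the families taken. The neural list had a median of 2 sites per gene, against 0 over all microRNA genes. Neural genes between protein-coding genes had a site in 21 of 28 cases and those inside in 11 of 16. Away from protein-coding TSSs, 23 of 34 neural genes (67.6%) had one, against 26.9% of all such microRNA genes. Their windows carried a median of 17.2% masked bases, against 24.6% over all microRNA genes, and the part of this in the count was not tested. Their 131 sites were seldom promoters of protein-coding genes (3.82% within 500 bp of a TSS, 87% more than 2500 bp away), and 13.7% lay within 500 bp of a lncRNA TSS.

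The miR-9 loci differed among themselves although they give the same mature RNA. Mir9-2, inside the lncRNA C130071C03Rik, had 12 consensus sites spread over the whole window, the strongest 956 bp after the 5′ end with signals of 110 and 48 in replicates 1 and 2. The site on its hairpin, printed above, had signals of 41 and 33. Mir9-3, inside Mir9-3hg, had 10 sites. The strongest of them, printed above, lay 354 bp before the 5′ end with signals of 137 and 81, and another lay 826 bp after it with 122 and 62. Mir9-1, inside Gm3764, had no consensus site, with 1 peak of replicate 1 (signal 83) and 7 of replicate 2 (signals 17 to 49) that did not overlap it. So 2 of the 3 loci were densely open in both replicates and the third was not.

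All 3 loci of miR-124, the abundant neuronal microRNA, were densely open. Mir124a-1 and Mir124a-2 had 10 sites each and Mir124a-3 had 8, and none of the 28 lay within 500 bp of a protein-coding TSS. The strongest had signals of 122 and 72 and lay 200 bp after the 5′ end of Mir124a-3. At Mir124a-2 the highest signals were 107 and 61, 1862 bp before the 5′ end, and 111 and 56, 2918 bp after it. At Mir124a-1 a site with signals of 61 and 36 overlapped the hairpin. Mir124a-3 had 7 of its 8 sites upstream, while the other two loci had sites on both sides.

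Mir132 and Mir212, a pair induced by neuronal activity that acts on dendrites, shared 11 sites. The one on the Mir132 hairpin was the strongest, with signals of 103 and 69, and a site 452 bp before Mir132 had 91 and 67. Those farthest upstream reached the promoter region of Hic1, where 2 sites lay within 500 bp of a TSS. Mir219a-2 and Mir219b, opposite-strand hairpins of a family known for oligodendrocyte maturation, shared 8 sites. The strongest, printed above, had signals of 130 and 68 and lay 654 bp before Mir219a-2, and the site on both hairpins had 38 and 54. The second miR-219 locus, Mir219a-1 with Mir219c, had 5 sites, of which the one with signals of 128 and 95 was 44 bp from a TSS of H2-Ke6 and the one with 109 and 85 was 120 bp from a TSS of Ring1. Open chromatin there could not be told apart from that of these promoters.

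Mir137, which acts on neural stem cells and neuron maturation, had 6 sites, with signals of 95 and 45 at the strongest, 3396 bp upstream, and 63 and 46 on the hairpin. Mir125a, in an intron of Spaca6 with Mir99b and Mirlet7e, had 7 sites, all upstream, the strongest with signals of 129 and 92. Mir125b-1 had 5 sites (highest signals 94 and 41) and Mir125b-2 had 3 (95 and 48). Mir181c had 6 sites and Mir181d 5, and the site that touched both hairpins was weak, with signals of 18 and 9, while the strongest had 113 and 57. Mir7-2 had 5 sites with highest signals of 109 and 43 at one and 77 and 68 at another. Mir7-1, in Hnrnpk, and Mir7b had 1 site each, with signals of 78 and 38 and of 80 and 54. Mir153, in Ptprn2, had 5 sites, of which that on the hairpin had signals of 16 and 23.

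The other members with a site had 1 to 3 each. Mir128-2, in Arpp21 and known for damping neuronal excitability, had 3, and the one on its hairpin, printed above, had signals of 49 and 40. Mir129-2 had 3 sites (highest signals 94 and 57) and Mir129-1 had 2 (88 and 57). Mir135b had 2 (86 and 50 at the stronger, 83 bp from a TSS of Lemd1), Mir135a-1 had 2 (73 and 30) and Mir135a-2, in the lncRNA Rmst, had 1 (35 and 26). Mir338, in Aatk, had 2 sites (93 and 47 at the stronger). Mir29b-2 and Mir29c shared 1 site (46 and 15), Mir34a had 1 (52 and 26) and Mir138-1 had 1 (53 and 18). In all, 10 neural hairpins were overlapped by a site.

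No consensus site lay at 12 neural genes, 5 of which had no peak at all. Those without a peak were Mir128-1 in R3hdm1, Mir181a-2 and Mir181b-2 in Nr6a1, and Mir29a and Mir29b-1, all from families with other loci in the list. Mir181a-1 and Mir181b-1 had 2 peaks of replicate 1 (signals 18 and 24) and none of replicate 2. Mir218-1 and Mir218-2, in the axon guidance genes Slit2 and Slit3 and known for their role in motor neurons, showed opposite replicates. Mir218-1 had 21 peaks of replicate 2, all weak (signals 2 to 10), and none of replicate 1, while Mir218-2 had 2 peaks of replicate 1 (34 and 40) and none of replicate 2. Mir138-2 had 2 weak peaks of replicate 2 (signal 6 each) and Mir184 had 1 (signal 10). Of the 19 neural families, 12 had a site at every gene, 5 at some and 2, miR-184 and miR-218, at none.

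**Figure D4:**
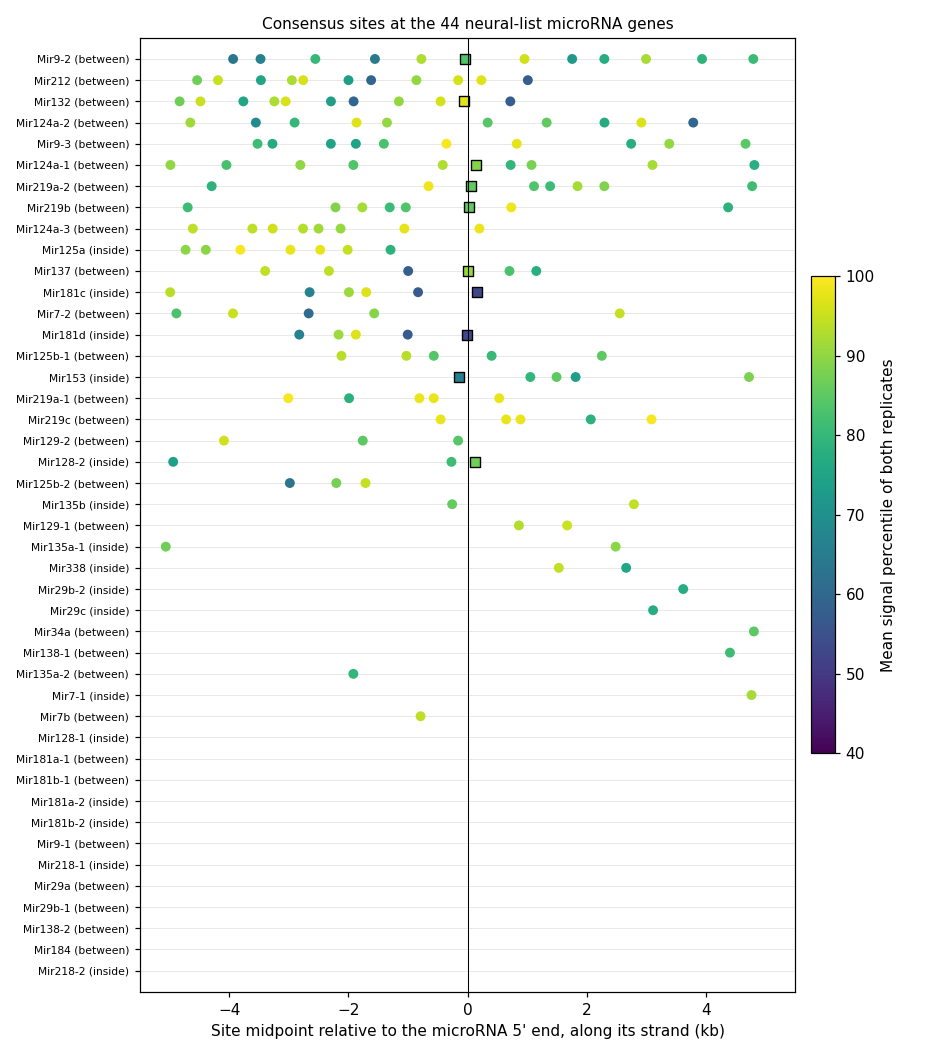
Each row is 1 of the 44 neural-list genes, ordered by number of sites, and each symbol is a consensus site within 5 kb, placed by the distance of its midpoint from the 5′ end of the microRNA (kb, along its strand) and coloured by its mean signal percentile in both replicates. Squares with an outline overlap the hairpin. Rows run from Mir9-2 with 12 sites to 12 genes with none, and genes of 1 locus share their sites.

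The other 12 lists, of microRNAs known from other tissues or processes, were mixed. They held 141 genes, of which 70 had a consensus site, and the share by list ran from 14.6% to 100%, against 39.5% of all microRNA genes and 21.7% of tiles. The imprinted list supplied 48 of the 141 genes and 7 of the 70, which lowers the pooled share. All but the imprinted, the mesenchyme and the liver, gut and pancreas lists lay above 39.5%. Genes of 1 cluster share windows, so some counts rest on few loci. The sensory cluster Mir183, Mir96 and Mir182 had up to 4 sites per gene, the strongest between Mir182 and Mir96 with signals of 60 and 37. The miR-17 and miR-15 groups, which promote proliferation, had a site at 11 of 13 genes in 3 of 4 clusters. At the Mir17 cluster, 2 upstream sites had signals of 108 and 75 and of 110 and 81, far from any coding TSS, whereas Mir106b and Mir25 in Mcm7 were marked by the promoter of Cops6 (122 and 91). The let-7 and miR-99/100 group had a site at 10 of 13 genes, with Mir99b and Mirlet7e sharing the Mir125a sites, and no peak at Mirlet7c-1 and Mirlet7g. Mir196a-1 (77 and 64) and Mir10a (98 and 40, 423 bp from a TSS of Hoxb4) led the Hox-linked list, with 4 of 6 genes.

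Lists known from tissues far from the brain lay on both sides of the 39.5% of all microRNA genes, and several of their sites were neighbouring promoters or single sites shared by a cluster. The pluripotency list had a site at 14 of 14 genes, but these were 2 clusters with 1 site each, of signals 63 and 20 at the Mir290a to Mir295 cluster and 47 and 17 at the Mir302b to Mir367 cluster. Of the blood and immune list, 5 of 10 genes had a site (50%), and 2 did without sites within 500 bp of a coding TSS. Mir146b (112 and 78) was marked by the promoter of Cuedc2, and Mir144 and Mir146 had no peak. The endothelial pair Mir126a and Mir126b in Egfl7 shared 2 sites, the stronger with 93 and 61, 141 bp from a TSS of Gm20532. The muscle list had 5 of 9 genes (55.6%), led by Mir499 in Myh7b (72 and 59) and Mir1a-1 (35 and 29), with no peak at Mir133a-1 and Mir1a-2. Epithelial microRNAs had a site at 4 of 7 genes (57.1%), with Mir203 (73 and 58) and Mir141 (62 and 23) first and no peak at Mir200a and Mir200b. In the liver, gut and pancreas list 3 of 10 genes had a site (30%), Mir192 and Mir194-2 sharing the strongest (87 and 39), while 7 had a peak in replicate 1 and 6 in replicate 2. The mesenchyme list had 2 of 6 (33.3%), Mir145a (93 and 75) and Mir143 (84 and 72 at the strongest), with no peak at Mir199a-1, while 4 had a peak in replicate 1 and 5 in replicate 2. The imprinted Dlk1-Meg3 list was drawn from a genomic region and not from a tissue, and it leaves out some genes of that region, such as Mir3072. It had the lowest share with the 5 kb window, 7 of 48 genes (14.6%). This count depended on the library, with a peak of replicate 1 near 23 genes and a peak of replicate 2 near 13, some genes having both. The count was 2 where peaks had to overlap by at least 50%. The strongest sites of the listed genes were at Mir341 (77 and 28) and Mir770 (71 and 22). No peak in either replicate lay at 24 listed genes, among them Mir1197 and Mir134. Which cells of the tissue these sites belong to was not tested.

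**Figure D5:**
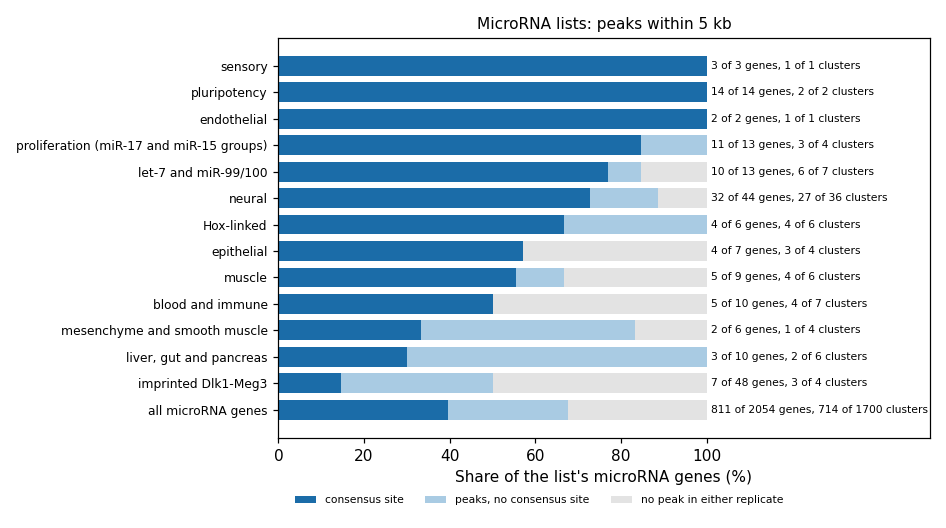
Bars give, for each list and for all microRNA genes, the share of genes with a consensus site within 5 kb (dark blue), with peaks but no consensus site (light blue) and with no peak (grey), with counts of genes and clusters at the right. Lists of 1 or 2 clusters fill the top rows, the neural list stands at 32 of 44 genes and the imprinted list lowest at 7 of 48.

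The 2054 genes formed 1700 clusters, of which 714 (42%) had a consensus site. Sites numbered 5 or more at 82 clusters and 10 or more at 15. The share of tiles was 0.821% for 5 or more sites and was not computed for 10 or more. Cluster windows can be longer than tiles. Those 15 clusters were of a few kinds. In 7 of them the microRNA models, with Gm symbols, lay in or beside histone genes of the Hist1 locus on chromosome 13, where neighbouring histone promoters supplied 3 to 6 of 10 to 14 sites. Gm44367 and Gm44357, Gm44390 and Gm44486, and Gm44314 and Gm44484 had 14 sites each, and Gm44394 and Gm44359 had 13. In 5 the cluster held a neural-list gene (Mir9-2, Mir212 with Mir132, Mir124a-2, Mir9-3 and Mir124a-1), with no promoter site except the 2 at Hic1. The other 3 were Mir6991 with 13 sites, Gm23419 with Mir6935 in Actg1 with 12 and the intergenic Mir3089 with 10. Of the 6 clusters with 10 or more sites that lay wholly between protein-coding genes, 5 held a neural-list gene. Neural-list genes lay in 36 of all 1700 clusters, and the list was chosen with earlier results of these data known.

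Single sites of the highest rank were almost all promoters of neighbouring protein-coding genes. Of inside genes, Gm22953 stood first with signals of 142 and 97, at the promoter of Serf2, before Mir467f at Fxr2 (142 and 96) and Gm24112, Gm25931 and Mir5123 at B4galt1 (140 and 98). Of between genes, Mir1946b at the promoter of Smarca4 (139 and 103), Gm22860 at Taf13 (137 and 85), Gm25303 at Ywhaz (131 and 97) and Mir3069 at Glrx5 (136 and 85) were among the first 5. Mir210, a microRNA induced by low oxygen, was the exception. Its site, 428 bp before the 5′ end and 6026 bp from the TSS of Rassf7, had signals of 135 and 87.

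A consensus site overlapped the hairpin itself at 106 genes (5.16%), against 1.11% of tiles of 90 bp, the median hairpin length. They were 61 inside genes, 38 between genes and 7 at an edge, and at 43 of them the site was a promoter. The 10 with the highest percentiles were Gm44349 (signals 135 and 90), Gm25677 (133 and 90), Mir7238 (134 and 86), Gm23634 (132 and 87), Gm27734 (130 and 87), Gm27920 (126 and 104), Mir1945 (135 and 77), Gm27486 (121 and 89), Mir7666 (122 and 86) and Mir8102 (119 and 90). All but Gm44349 lay at a promoter, and Gm44349 was 516 bp from a TSS of Ctdnep1. The 10 neural hairpins with a site, by contrast, all lay at sites 2248 bp or more from a coding TSS.

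Clusters of several genes differed widely. Of 30 clusters of 3 or more genes, 18 had a consensus site (60%), against 40.4% of single-gene clusters, whose windows cover a shorter stretch. No peak in either replicate lay at 8 of the 30 (26.7%), against 27.9% of all clusters. The largest, 119 genes from Gm22072 to Mir669h within Sfmbt2, had 6 peaks of replicate 2, none of replicate 1 and no consensus site over 53 kb. The 44 genes from Mir379 to Mir3072, in the imprinted Dlk1-Meg3 region, had 3 sites, the strongest with signals of 96 and 55. The 8 clusters without any peak were Gm25533 to Mir344d-2, Gm25747 to Gm22175, Mir30c-1 to Mir30f in Nfyc, Mir429 to Mir200b in Ttll10, Mir467h to Gm25510, Mir144 to Mir451b, Mir6364 to Gm26095 and Mir133a-1 to Mir1a-2 in Mib1. Among them were the epithelial Mir200b group, the erythroid Mir144 and Mir451 group and the muscle pair Mir133a-1 and Mir1a-2. The cluster of Mir9-1 and that of Mir23b and Mir24-1 had peaks but no consensus site.

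Some windows held many peaks of 1 replicate and none of the other, a pattern noted after seeing the data. At least 10 peaks of 1 replicate and 0 of the other lay near 36 microRNA genes (1.75%), against 3.33% of tiles. By cluster, 13 had such peaks of replicate 1 and 20 of replicate 2. Signals there were low, as with the 20 peaks of replicate 1 at Mir383 (signals 2 to 9), the 19 of replicate 2 at Mir708 (2 to 7), the 17 of replicate 2 at Mir194-1 and Mir215 (1 to 7) and the 15 of replicate 1 at Mir216a and Mir217 (2 to 13).

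Short sequences bound by neural transcription factors were searched on either strand in the 150 bp around each site's midpoint. The homeodomain sequence TAATTA was in 7 of 131 sites near neural microRNA genes (5.34%), in 2.6% of sites near any microRNA gene and in 2.74% of all consensus sites. The E-box CAGATG was in 12.2%, 9.59% and 12.6% of these sets, and the E-box CAGCTG in 11.5%, 10.4% and 13.3%. ACAATG was in 3.05% of neural sites, 5.86% of sites near any microRNA gene and 8.1% of all sites, and the octamer ATGCAAAT in none of the 131, in 1.18% and in 1.19%. At promoters, CAGATG was in 4.24% of sites near microRNA genes and 4.85% of all sites. Among sites more than 2500 bp from a TSS, CAGATG was in 14% of neural sites, 13.4% of sites near any microRNA gene and 15.1% of all sites. TAATTA was there in 6.14% (7 of 114 sites), 3.43% and 3.52% of the same sets, and ACAATG in 2.63% (3 of 114), 6.5% and 9.84%. The shares were 12.3%, 12.1% and 14.7% for CAGCTG and 0%, 1.3% and 1.45% for ATGCAAAT. Matches of different sequences were counted separately and could overlap by a few letters, and a match describes the letters and not a bound factor.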

How the data were processed

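Each replicate has its own peak list and hotspot list on mm10, which the authors deposited and, per the file records, called on that replicate alone. How reads were aligned and peaks called is not given in the sources used. The signal of each deposited peak is a whole number with no stated normalization. Each deposited hotspot carries a q-value on a −log10 scale, and hotspots served only as an alternative to peaks. The members and the microRNA lists were chosen with earlier results of these data known.

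Repeated peak rows were merged (50 in replicate 1, 104 in replicate 2). Genes, hosts and TSSs came from GENCODE vM21, with TSSs and exons from basic transcripts of protein-coding genes, and sequence from GRCm38.p6. No deposited peak ran past a chromosome end of that build. Tiles with over 50% unknown bases (6669) were left out. Scripts in Python 3 with NumPy and SciPy made the overlaps, which were tested on simulated peaks. The alternatives changed the window, the overlap, the peak set, the members and the replicates. Named loci were all neural-list genes, the clusters with most sites, the strongest sites of each class, the strongest hairpin sites, the largest clusters without peaks and the leading and peak-free members of the other lists. One locus that this rule takes is not reported here. The single-replicate windows were chosen after seeing the data. No gene list was tested, since members are not replicates.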

Additional observations from a re-analysis of the deposited data

How the results depend on the processing

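No paired analysis was possible because the series holds 1 group. The reported values are 39.5% of all, 43.5% of inside and 32.9% of between microRNA genes with a consensus site, a difference of 10.5 points, 42% of clusters, 1690 sites, 666 genes without a peak, 106 hairpins with a site and 102 list genes with a site. With a 2 kb window the shares were 24.1%, 26.3% and 20.1%, the difference 6.11 points, clusters 25.9%, sites 903, genes without a peak 1095 and list genes 59. With 10 kb they were 53.6%, 58.3% and 46.2%, 12.1 points, 56.9%, 2841 sites and 360 genes without a peak. Overlaps of at least 50% of both peaks gave 35.1%, 39.3% and 28.2%, with 37.4% of clusters. Any peak of each replicate in the window gave 45.2%, 49.8% and 37.8%, 12 points, 47.8% of clusters and 70 hairpins. The stronger 50% of peaks gave 37.9%, 42.2% and 30.8%, with 40.3% of clusters. Hotspots gave 41.9%, 45.7% and 35.7%, 44.4% of clusters and 242 hairpins. Without sites within 500 bp of a coding TSS the shares were 33.2%, 35.1% and 29.9%, the difference 5.23 points, clusters 34.8% and hairpins 63. Genes with a symbol beginning with Mir gave 47.3%, 48.2% and 44.7%, 3.5 points, 52.2% of clusters, 1075 sites, 296 genes without a peak and 63 hairpins. With hosts on the same strand only, the inside share was 42.8%.

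With 1 replicate left out, the shares were 56.2% to 56.6% of all, 59.7% to 60.1% of inside and 49.9% to 51.5% of between genes. The difference was then 8.16 to 10.1 points, clusters 59.6% to 60.2%, sites 3522 to 5542, hairpins 149 to 170, genes without a peak 892 to 900 and list genes 124 to 130. In the alternative added after seeing the data, genes more than 5 kb from a coding TSS, the shares were 26.9%, 26.5% and 27.5% and the difference reversed to -0.969 points, although with 1 replicate left out it was -0.252 and 2.45 points (mean 1.1). Clusters were then 28.9%, sites 700 and hairpins 32. The inside share stayed above the between share in every other alternative above, and the cause of the reversal was not tested. The inside genes of the added alternative include the 119 genes of 1 cluster within Sfmbt2, which had no consensus site. They lower the inside share, and the difference without them was not computed. Of 143 counts of single lists under these settings other than the added one, 122 stayed within 1.5 times the reported count and 21 did not. With 1 replicate left out these were the imprinted list (13 and 23 genes, reported 7), the liver, gut and pancreas list (6 and 7, reported 3) and the mesenchyme list (5 and 4, reported 2). Depth is unknown, so a window without a peak may hold weak sites that these libraries did not show.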
